A study of Homo sapiens with 18 samples.

Results

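The cytosolic heat shock genes are described here by 8 members, taken by gene symbol: the transcription factor gene HSF1, the HSP70 family genes HSPA1B and HSPA8, the HSP110 gene HSPH1, the HSP90 gene HSP90AA1, the small heat shock protein gene HSPB1, and the co-chaperone genes DNAJB1 and BAG3. All 8 were among the 20802 genes of the count lists and among the 10213 genes tested. Proteins that lose their fold are bound in the cytosol by chaperones of the HSP70 and HSP90 families, which use ATP and are steered by co-chaperones such as J-domain and BAG proteins. HSF1 is held inactive by chaperones in unstressed cells. When unfolded proteins draw the chaperones away, it forms trimers, binds heat shock elements in promoters and raises transcription of the inducible chaperone genes. HSF1 itself is regulated mainly as a protein, so that its mRNA level does not report its activity.

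RKO is an established human cell line from a colorectal carcinoma. Its cells were transfected with 30 nM of 1 siRNA for 72 h, and total RNA was read with an Ion AmpliSeq panel, in which primers amplify 1 short stretch per transcript. The 6 groups were 2 nontargeting siRNAs, siCtrl#1 and siCtrl#2, siTsg101#1 and siTsg101#2 against Tsg101, and siVps28#1 and siVps28#2 against Vps28, with 3 libraries each and 18 in all. Tsg101 and Vps28 are subunits of ESCRT-I, a complex that sorts membrane proteins for lysosomal degradation, and the 4 on-target siRNAs ask what its loss does to transcription. Every group, controls included, received transfection reagent and an siRNA, and a group without siRNA was not analysed here. The replicate number 1, 2 or 3 is also given in the labels as the batch, and each batch holds 1 library of every siRNA. The study describes the RNA-seq replicates as separate experiments. The tests set differences against the spread between libraries of a group, with no batch term unless stated.

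Reads counted on genes ranged from 2561790 to 7466916 per library, with 45.4% to 46.68% of reads on genes. Levels are CPM, the counts scaled to the size of the library, after TMM normalization, and since such a panel has no per-length scale they were compared between libraries and not between genes. Knockdown was checked first. TSG101 averaged 118 ± 40.1 CPM (SD, n = 3) with siCtrl#1, 3.90 ± 0.76 with siTsg101#1 and 3.43 ± 1.36 with siTsg101#2. VPS28 averaged 103 ± 13.3 CPM with siCtrl#1, 5.68 ± 2.15 with siVps28#1 and 6.11 ± 1.17 with siVps28#2. Of the markers of the labelled cell type, KRT18 had 166 to 517 counts, CDX2 71 to 213, EPCAM 21 to 82 and KRT8 14 to 133 in each library, whereas CDH1 had 0 and VIL1 and KRT20 at most 2. Of the markers of other cell types, PTPRC and CD3E were at 0 in all libraries, PECAM1 had at most 2 counts, COL1A1 at most 11 and VIM 73 to 415. CDH1, an adhesion protein of epithelia, and the differentiation markers VIL1 and KRT20 were thus not seen in these cells.

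The counts of some members share sequence with relatives, which limits what can be read from them. HSP90AA1 (chromosome 14 of GRCh37, 102547079 to 102606036) shares 52.9% of its transcript, in stretches of 50 bases, with pseudogenes such as HSP90AA2P. HSPA8 (chromosome 11, 122928197 to 122933938) shares 54.9% with pseudogenes such as HSPA8P1. HSPA1B (chromosome 6, 31795515 to 31798031) has 1 exon and shares 74.1% with relatives, mainly HSPA1A, and 920 of its bases lie in the annotated gene ENSG00000285565 of the same strand. HSPA1A, the near-identical neighbour of HSPA1B, had 24 counts in the 18 libraries together and was not tested, so that the values given for HSPA1B may hold reads of both. HSPB1 (chromosome 7, 75931990 to 75933612) shares 25.2% with HSPB1P1 and a relative, and DNAJB1 (chromosome 19, 14625581 to 14671203) shares 11.3% with DNAJB1P1. HSPH1 (chromosome 13, 31709110 to 31736525), BAG3 (chromosome 10, 121410892 to 121437331) and HSF1 share no such stretch. Which stretch the panel reads was not known.

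Heat shock elements are built of inverted GAA units, and the promoters of the members were searched for them. The promoters are those of RefSeq on GRCh38.p14, from 250 bases before to 50 bases after the start, and were listed for 7 of the 8 members, HSF1 not among them. A pair of units, GAANNTTC or TTCNNGAA, was found in 13.5% of all 35116 promoters listed. A run of 3 units, GAANNTTCNNGAA or TTCNNGAANNTTC, was found in 0.49% of them. The pairs read the same on both strands, the runs are the reverse complement of each other, and a run of 3 units also holds 2 overlapping pairs. The windows below show the matches that lie before the start, each read on the strand of its gene, with the units of each match and the bases between them in capitals. They are shown because the heat shock element is the sequence to which HSF1 binds.
HSPA1B, chr6:31827618-31827655, plus strand: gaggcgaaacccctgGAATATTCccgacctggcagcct
HSPA8, far window, chr11:123062339-123062381, minus strand: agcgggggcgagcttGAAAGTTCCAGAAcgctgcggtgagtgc
HSPA8, near window, chr11:123062164-123062206, minus strand: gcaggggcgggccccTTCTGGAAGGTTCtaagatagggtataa
HSP90AA1, downstream of its 2 promoters, chr14:102087090-102087147, minus strand: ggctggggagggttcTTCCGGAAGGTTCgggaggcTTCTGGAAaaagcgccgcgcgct
HSPB1, chr7:76302476-76302513, plus strand: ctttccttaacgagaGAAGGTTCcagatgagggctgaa
DNAJB1, middle of its 3 promoters, chr19:14518422-14518489, minus strand: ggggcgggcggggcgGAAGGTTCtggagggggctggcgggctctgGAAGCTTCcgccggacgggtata

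HSPA8 held 2 runs of 3 units, and HSP90AA1 held 1 run and a further pair. HSPA1B and HSPB1 held 1 pair each, and DNAJB1 held 2 in the promoter shown and 1 after the start of another. In HSPH1 and BAG3, and in the other listed promoter of HSP90AA1, these letters were not found in the window searched. A match is a run of letters and no evidence of binding.

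**Figure D1:**
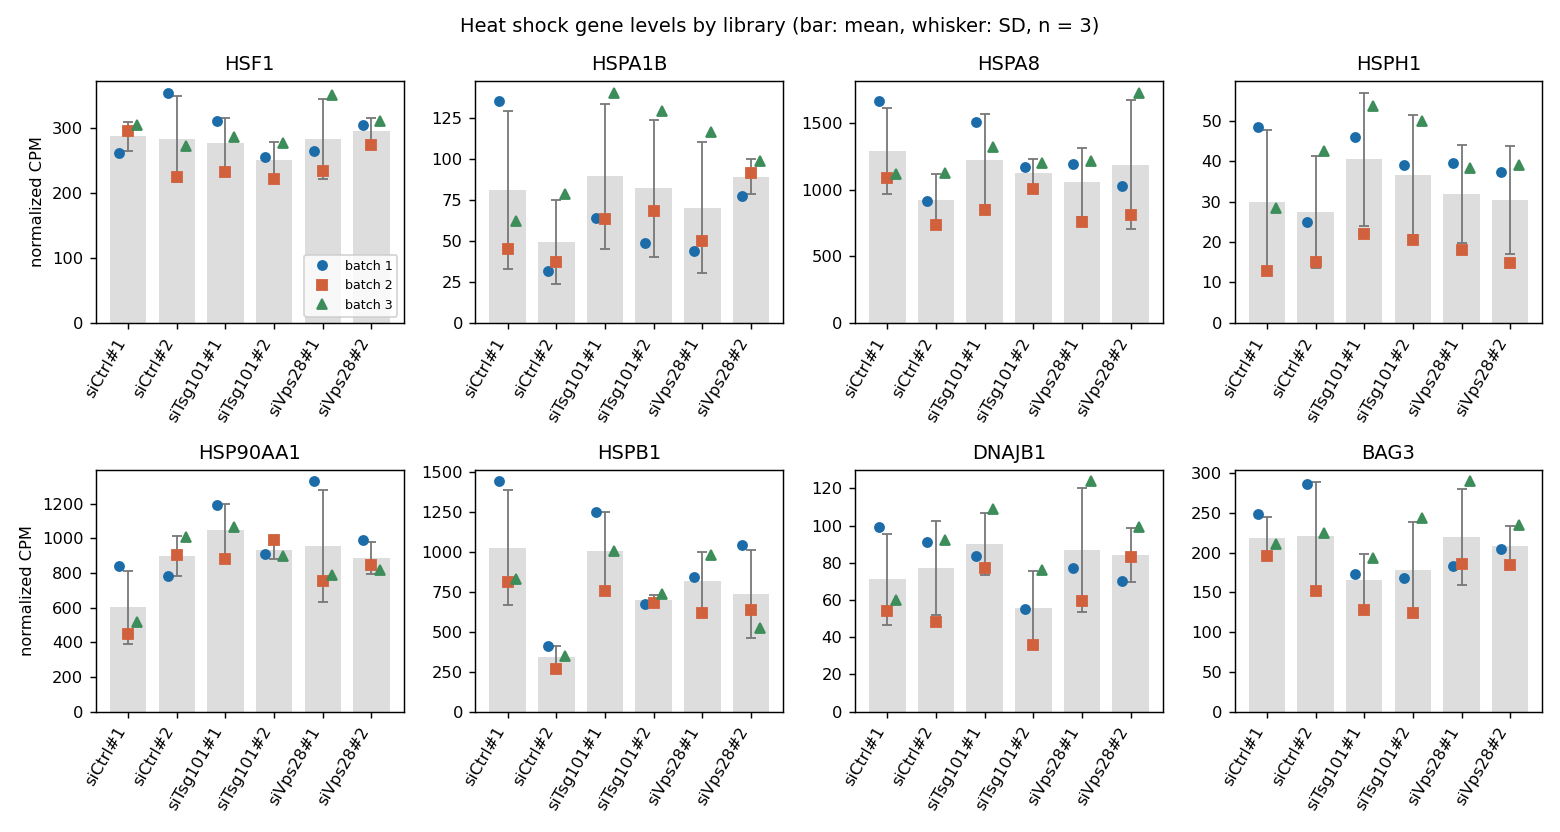
Normalized CPM (linear vertical axes from 0) of each of the 8 heat shock genes in the 6 siRNA groups. Points are the 18 libraries, with their batch given by colour and shape, bars are group means and whiskers are SD (n = 3). HSP90AA1 is lowest in the siCtrl#1 group, HSPB1 is lowest in the siCtrl#2 group, and HSPH1 is lowest in batch 2 within every group.

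HSP90AA1 was the 1 member that passed the test when ESCRT-I–depleted cells were set against siCtrl#1, and it did not pass against siCtrl#2. HSP90AA1 encodes the stress-inducible cytosolic HSP90, which completes the folding of kinases and steroid receptors. In batches 1, 2 and 3 its levels were 843, 448 and 517 CPM with siCtrl#1. They were 781, 906 and 1008 CPM with siCtrl#2. Of the 12 on-target libraries, 9 lay above all siCtrl#1 libraries and 3 above all siCtrl#2 libraries, with a median of 904 CPM and a range from 753 to 1330. For siTsg101#1 the values were 1191, 884 and 1065 CPM, while siTsg101#2 gave 911, 991 and 897 CPM. Vps28 depletion gave 1330, 753 and 787 CPM for siVps28#1, and 991, 847 and 817 CPM for siVps28#2. The siTsg101 groups did not overlap siCtrl#1, whereas the siVps28 groups did, through the siCtrl#1 library of batch 1.

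A call needed a change of 1.5-fold or more and an adjusted p under 0.05, from edgeR's quasi-likelihood test with Benjamini-Hochberg adjustment over the 10213 genes. With siCtrl#1 as the reference, the mean over all 4 on-target siRNAs called 1 of the 8 members, a share of 12.5%, beside 15.1% of all genes tested (8.56% called higher). The median log2 fold change was -0.015 over the members and -0.003 over all genes. HSP90AA1 rose by 0.66 on the log2 scale (SE 0.18, adjusted p = 0.00897 from edgeR), which is 1.58-fold. It was higher than siCtrl#1 within each batch, by 0.38, 0.95 and 0.77. Each siRNA on its own gave a log2 fold change of 0.80 with siTsg101#1 (adjusted p = 0.00889 from edgeR, called), where 21.8% of all genes were called. With siTsg101#2 it was 0.63 (adjusted p = 0.0407 from edgeR, called), where 17% of all genes were called.

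With siVps28#1 the change of HSP90AA1 was 0.67 (adjusted p = 0.0534 from edgeR), and with siVps28#2 it was 0.55 (adjusted p = 0.0885 from edgeR). Neither passed, and no other member did in these comparisons, where 8.67% and 13.3% of all genes were called. At an unadjusted p under 0.05 there was 1 member in each, and DESeq2 called 1 member with siVps28#1 and 0 with siVps28#2. The shares of all genes given here are for the edgeR call and not for these counts. With the replicate number as a block, HSP90AA1 passed in both, at 0.67 (adjusted p = 0.0205 from edgeR) and 0.59 (adjusted p = 0.0317 from edgeR), where 10.5% and 15.2% of all genes were called. That Vps28 depletion missed the threshold while Tsg101 depletion passed it does not show that they differ, and their difference is given below.

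The call of HSP90AA1 rested on siCtrl#1 as the reference. Relative to siCtrl#2, the 4 on-target siRNAs averaged differed by 0.085 on the log2 scale (SE 0.17, 95% interval -0.27 to 0.44, adjusted p = 0.791 from edgeR). siCtrl#2 itself was higher than siCtrl#1 by 0.58 (SE 0.22, adjusted p = 0.195 from edgeR), which did not pass. Against the mean of both nontargeting siRNAs the change was 0.37 (adjusted p = 0.039 from edgeR), short of 1.5-fold, and 0 of the 8 members were called beside 12.2% of all genes. Against siCtrl#1 the call was also lost without siCtrl#1 replicate 2 (0.48, adjusted p = 0.105 from edgeR), siCtrl#1 replicate 3 (0.56, adjusted p = 0.0711 from edgeR) or siVps28#1 replicate 1 (0.58, adjusted p = 0.0103 from edgeR), and without the 6 libraries of batch 2 (0.54, adjusted p = 0.097 from edgeR), the last chosen after the values were seen. HSP90AB1, the constitutive cytosolic HSP90, changed by 0.14 (SE 0.13, adjusted p = 0.469 from edgeR).

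**Figure D2:**
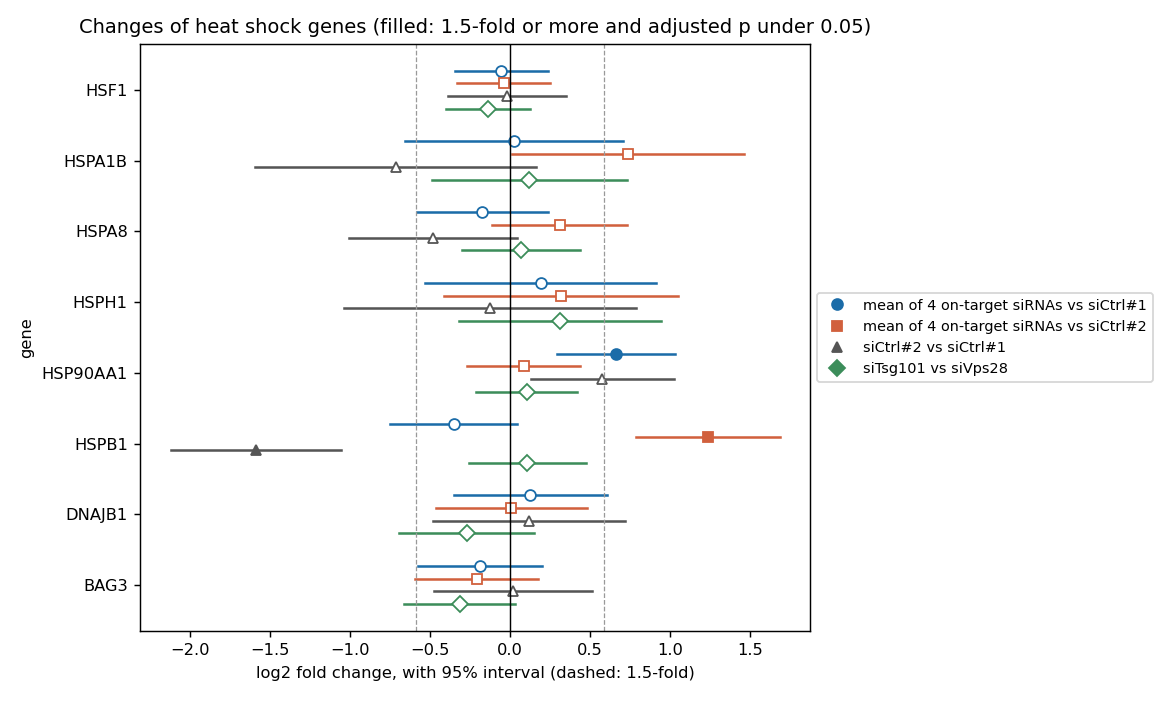
Log2 fold changes of the 8 heat shock genes with their 95% intervals (horizontal axis) in 4 comparisons, given by colour and shape. Filled points passed both 1.5-fold and an adjusted p under 0.05, and dashed lines mark 1.5-fold. HSP90AA1 is filled against siCtrl#1 alone, and HSPB1 is filled in both comparisons that hold siCtrl#2.

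HSPB1 was the member on which the nontargeting siRNAs differed most. It encodes HSP27, a small heat shock protein that holds unfolding proteins without using ATP. In batches 1, 2 and 3 its levels were 1445, 811 and 830 CPM with siCtrl#1. They were 410.5, 268 and 349 CPM with siCtrl#2. No siCtrl#2 library reached the lowest of siCtrl#1, and all 12 on-target libraries, which ranged from 524 to 1249 CPM, lay above all 3 of siCtrl#2. Levels were 1249, 759 and 1005 CPM for siTsg101#1, while siTsg101#2 gave 674, 679 and 738 CPM. Vps28 depletion gave 847, 621 and 984 CPM for siVps28#1, and 1048, 640.1 and 524 CPM for siVps28#2. Of the on-target libraries, 7 lay below all siCtrl#1 libraries and 5 between them.

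HSPB1 was lower with siCtrl#2 than with siCtrl#1 by -1.59 on the log2 scale (SE 0.26, adjusted p = 0.00089 from edgeR), 0.333-fold. It was 1 of the 8 members called between the nontargeting siRNAs, a comparison in which 2.09% of all genes were called. The difference was -1.82, -1.60 and -1.25 within batches 1, 2 and 3, and it was called with each of these 6 libraries left out in turn, at -1.74 to -1.26. Relative to siCtrl#2, all 4 on-target siRNAs averaged were higher by 1.23 (SE 0.22, adjusted p = 0.000311 from edgeR), 2.35-fold, and HSPB1 was again the 1 member called, where 10.5% of all genes were. Each on-target siRNA passed on its own against siCtrl#2, with log2 fold changes of 1.55 for siTsg101#1 (16.1% of all genes called), 1.02 for siTsg101#2 (14.4%), 1.26 for siVps28#1 (4.41%) and 1.11 for siVps28#2 (9.25%). Relative to siCtrl#1 the same mean differed by -0.35 (SE 0.19, 95% interval -0.75 to 0.046, adjusted p = 0.196 from edgeR), which did not pass. These comparisons share the on-target libraries, and without a group that received no siRNA the part of either nontargeting siRNA cannot be told apart.

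The HSP70 system includes HSPA8, the constitutive HSC70, HSPA1B, the inducible HSP70, and HSPH1, which exchanges nucleotide on both. HSPA8 read 1668, 1092 and 1121 CPM in batches 1, 2 and 3 with siCtrl#1, and 917, 735 and 1126 CPM with siCtrl#2. The 12 on-target libraries ranged from 756 to 1732 CPM with a median of 1184, and both nontargeting groups overlapped them. The change against siCtrl#1 was -0.17 (95% interval -0.58 to 0.24, adjusted p = 0.575 from edgeR). Against siCtrl#2 it was 0.31 (95% interval -0.11 to 0.73, adjusted p = 0.333 from edgeR), so that the sign followed the reference.

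HSPA1B was at 135.5, 45.2 and 62.1 CPM in batches 1, 2 and 3 with siCtrl#1, and at 31.8, 37.1 and 78.4 CPM with siCtrl#2. Tsg101 depletion gave 63.8, 63.5 and 140.4 CPM for siTsg101#1, and siTsg101#2 gave 48.7, 68.3 and 129 CPM. For siVps28#1 the levels were 44.1, 50.2 and 116 CPM, while siVps28#2 gave 77.5, 91.2 and 98.4 CPM. Batch 3 held the highest level in every group but siCtrl#1. The siCtrl#1 library of batch 1 was the second highest of all 18, and the others of that group lay at 62.1 CPM or lower. The difference from siCtrl#1 was -1.24 in batch 1 but 0.56 and 0.95 in batches 2 and 3. Over all batches it was 0.025 (95% interval -0.66 to 0.71, adjusted p = 0.965 from edgeR), and without siCtrl#1 replicate 1 it was 0.61 (adjusted p = 0.303 from edgeR). Relative to siCtrl#2 HSPA1B was higher in each batch, by 0.84, 0.84 and 0.61, and the change of 0.74 (95% interval 0.014 to 1.46, adjusted p = 0.159 from edgeR) did not pass. The intervals allow a change of more than 1.5-fold in either direction against siCtrl#1.

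HSPH1 read 48.5, 12.9 and 28.4 CPM in batches 1, 2 and 3 with siCtrl#1, and 25, 15.1 and 42.4 CPM with siCtrl#2. Its on-target libraries ranged from 14.9 to 53.6 CPM, and each group held its lowest value in batch 2. The change was 0.19 against siCtrl#1 (95% interval -0.53 to 0.91, adjusted p = 0.737 from edgeR) and 0.32 against siCtrl#2 (95% interval -0.41 to 1.05, adjusted p = 0.596 from edgeR).

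The co-chaperone genes did not pass against either control. DNAJB1 encodes HSP40, which delivers clients to HSP70 and starts its ATPase cycle. Its levels in batches 1, 2 and 3 were 99.2, 54.1 and 60.2 CPM with siCtrl#1, and 91.2, 48.3 and 92.3 CPM with siCtrl#2. In the 12 on-target libraries they ranged from 35.8 to 124 CPM with a median of 77.3, around both controls. DNAJB1 changed by 0.13 against siCtrl#1 (95% interval -0.35 to 0.60, adjusted p = 0.737 from edgeR) and by 0.0087 against siCtrl#2 (95% interval -0.46 to 0.48). Within batches the difference from siCtrl#1 was -0.49, 0.17 and 0.74.

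BAG3 encodes a partner of HSP70 that leads its clients to autophagy. It read 248, 195.5 and 210.5 CPM in batches 1, 2 and 3 with siCtrl#1, and 286, 152 and 225 CPM with siCtrl#2. Of the on-target libraries, which ranged from 125 to 290 CPM, 8 lay below all siCtrl#1 libraries and 2 below all siCtrl#2 libraries. The change was -0.19 against siCtrl#1 (95% interval -0.57 to 0.20, adjusted p = 0.507 from edgeR) and -0.21 against siCtrl#2 (95% interval -0.59 to 0.18, adjusted p = 0.498 from edgeR). Both intervals leave out a rise of 1.5-fold.

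HSF1 (chromosome 8 of GRCh37, 145515273 to 145538383, with 137 bases of its exons overlapping antisense genes such as DGAT1) varied least between the groups. Its mean was 286 ± 22.9 CPM in siCtrl#1 cells and 283 ± 65.9 in siCtrl#2 cells. Tsg101 depletion gave 276 ± 39.9 CPM for siTsg101#1 and 250.4 ± 28 for siTsg101#2, and Vps28 depletion gave 283 ± 60.9 for siVps28#1 and 295 ± 20.1 for siVps28#2. Neighbours in the order of these means differed by less than their SD. The change was -0.056 against siCtrl#1 (95% interval -0.35 to 0.23, adjusted p = 0.812 from edgeR) and -0.039 against siCtrl#2 (95% interval -0.33 to 0.25, adjusted p = 0.893 from edgeR), intervals that leave out a change of 1.5-fold.

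Tsg101 depletion was next compared with Vps28 depletion directly, without either nontargeting siRNA. None of the 8 members was called by edgeR or DESeq2, and without a replicate block 0 had an unadjusted p under 0.05, where 6.23% of all genes were called. The log2 differences, siTsg101 minus siVps28, ran from -0.32 to 0.31. BAG3 was lower by -0.32 (95% interval -0.66 to 0.033, adjusted p = 0.249 from edgeR), and was lower in each batch, by -0.18, -0.55 and -0.27. HSPH1 differed by 0.31 (95% interval -0.32 to 0.94, adjusted p = 0.571 from edgeR) and DNAJB1 by -0.27 (95% interval -0.69 to 0.15, adjusted p = 0.439 from edgeR). HSP90AA1 differed by 0.10 (95% interval -0.21 to 0.42, adjusted p = 0.731 from edgeR), an interval that leaves out 1.5-fold. In the fit with the replicate number as a block, 2 members had an unadjusted p under 0.05, and neither was called. These were BAG3 at -0.34 (95% interval -0.60 to -0.075, adjusted p = 0.0759 from edgeR) and HSPH1 at 0.32 (95% interval 0.019 to 0.61, adjusted p = 0.147 from edgeR). The 6.23% is for the edgeR call without the block and not for these counts.

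The siRNAs against each target were also compared with each other. Between siTsg101#2 and siTsg101#1, 6.98% of all genes and 0 of the 8 members were called, with 2 members, DNAJB1 and HSPB1, at an unadjusted p under 0.05 and 0 called by DESeq2. The 6.98% is for the edgeR call and not for the count at an unadjusted p. DNAJB1 was at 54.9, 35.8 and 75.9 CPM in batches 1, 2 and 3 with siTsg101#2 and at 83.5, 77.4 and 109 CPM with siTsg101#1, lower in each batch. Its log2 difference was -0.70 (SE 0.29, adjusted p = 0.145 from edgeR), and with the replicate number as a block it was -0.74 (adjusted p = 0.0296 from edgeR) and was called, where 9.04% of all genes were. HSPB1 differed by -0.53 (SE 0.25, adjusted p = 0.215 from edgeR). Between siVps28#2 and siVps28#1, 0 members were called by edgeR or DESeq2 and 0 had an unadjusted p under 0.05, beside 0.48% of all genes called, and the log2 differences ran from -0.15 to 0.34.

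Several members differed between batches, with batch 2 low in every siRNA group for HSPH1 and HSPA8. This pattern was noticed in the values by library and then tested on the same values, with an F test of the batch term in the edgeR fit that holds the siRNA groups. HSPH1 had 25 to 48.5 CPM over the 6 libraries of batch 1, 12.9 to 22 in batch 2 and 28.4 to 53.6 in batch 3, so that batch 2 overlapped neither of the others. HSPA8 had 917 to 1668 CPM in batch 1, 735 to 1092 in batch 2 and 1121 to 1732 in batch 3. Batch 2 was the lowest of the 3 batches in all 6 siRNA groups for both genes, which held for 1.76% of all genes tested.

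All 8 members were lower in batch 2 than in the mean of batches 1 and 3, by -0.21 for HSP90AA1 to -1.21 for HSPH1 on the log2 scale. Over all genes the median of this difference was 0.005, and its 5% to 95% range was -0.37 to 0.39. An adjusted p under 0.05 for batch was reached by 5 of the 8 members, beside 4.59% of all genes. These were HSPH1 (adjusted p = 4.88e-05 from edgeR), HSPA8 (0.019), BAG3 (0.0306), DNAJB1 (0.0317) and HSPB1 (0.0361). HSPA1B had 0.0511, with its highest levels in batch 3, and HSP90AA1 and HSF1 had 0.204 and 0.21. In 18 fits that each left out 1 library, HSPH1 was called in all 18, HSPA8 in 15, BAG3 in 11, DNAJB1 in 10 and HSPB1 in 7. What differed between batches is not given in the labels, and each batch holds all 6 siRNAs.

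**Figure D3:**
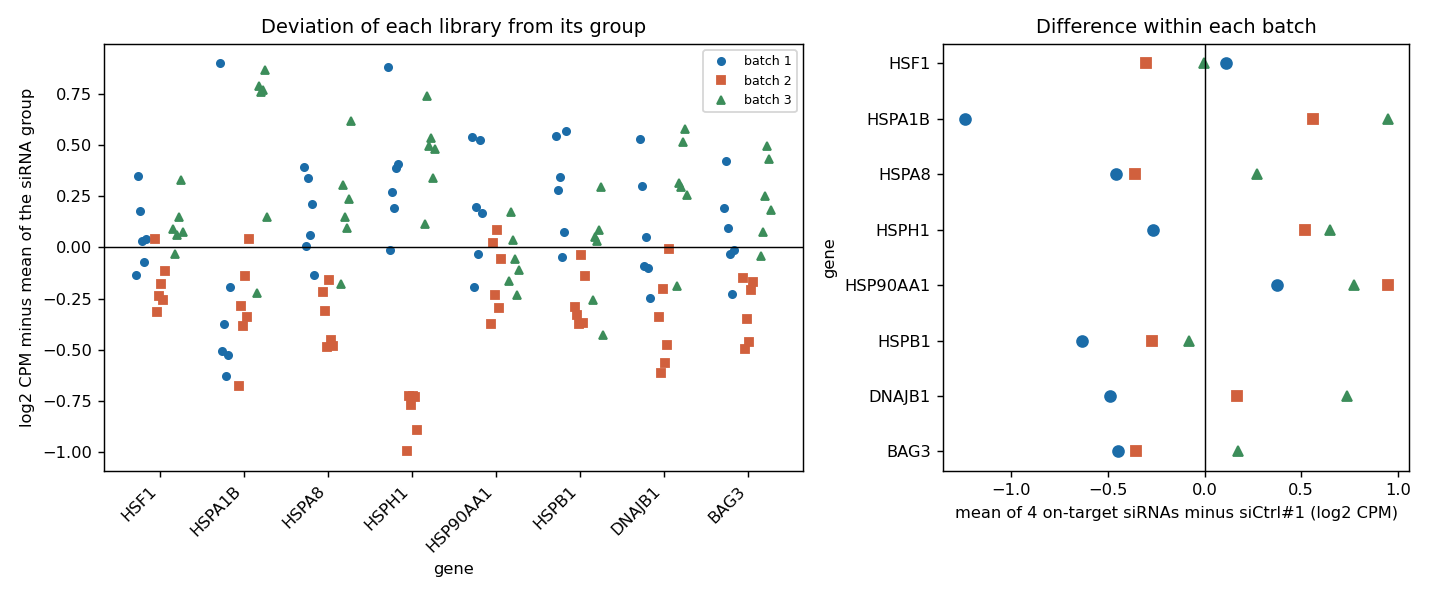
Left, log2 CPM of each library minus the mean of its siRNA group for the 8 heat shock genes, with 6 libraries per batch. Right, the difference between the mean of the 4 on-target siRNAs and siCtrl#1 within each batch, in log2 CPM. Batch 2 lies lowest for HSPH1. HSPA1B, HSPA8, HSPH1, DNAJB1 and BAG3 go from below 0 in batch 1 to above 0 in batch 3, HSF1 from 0.11 to -0.001, whereas HSP90AA1 is above 0 and HSPB1 below 0 in all 3.

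Other genes of the cytosolic chaperone system were read from a list of 53 genes, of which 51 were in the count lists and 41 were tested. The 2 others were not analysed here. The on-target siRNAs together, set against siCtrl#1, called 4 of the 41 higher and 0 lower, a share of 9.76% beside 15.1% of all genes, and the median change was -0.023 beside -0.003. By family, 3 of the 7 J-domain genes were called and 1 of the 6 other heat-inducible genes tested. Against siCtrl#1, none was called among 8 subunits of the chaperonin TRiC (median -0.22), 10 HSP90 co-chaperones (median -0.10), 4 BAG and exchange factors or 3 further HSP70 and HSP110 genes. Against siCtrl#2, where 10.5% of all genes were called, the co-chaperone ST13 passed at 0.77 (adjusted p = 0.00337 from edgeR). HSPA14 at -0.54 (adjusted p = 0.0072 from edgeR) and CDC37 at 0.43 (adjusted p = 0.0358 from edgeR) were short of 1.5-fold. The inducible HSPA6 had 6 counts in all libraries together, HSPB6 had 56, and CRYAB had 0.

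DNAJB2, a J-domain protein that also binds ubiquitin chains and passes clients to the proteasome, changed most in the list. It had 14, 5 and 19 counts in batches 1, 2 and 3 with siCtrl#1 and 8, 14 and 16 with siCtrl#2. Tsg101 depletion gave 34, 49 and 133 counts for siTsg101#1, while siTsg101#2 gave 119, 77 and 86. Vps28 depletion gave 20, 16 and 28 counts for siVps28#1, while siVps28#2 gave 29, 27 and 44. In counts, all 6 libraries of Tsg101 depletion lay above those of both controls. In CPM, the means were 2.65 ± 0.97 with siCtrl#1, 15.1 ± 3.04 and 14.9 ± 3.33 with the siTsg101 siRNAs, and 5.35 ± 1.34 and 5.60 ± 1.77 with the siVps28 siRNAs. DNAJB2 rose by 1.71 (SE 0.28, adjusted p = 0.000115 from edgeR) in the mean of the on-target siRNAs. The rise was greater with Tsg101 than with Vps28 depletion, by 1.47 (SE 0.20, adjusted p = 1.84e-05 from edgeR).

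DNAJB4, DNAJB5 and ZFAND2A also rose against siCtrl#1. DNAJB4, another HSP40, rose by 1.03 (adjusted p = 0.0122 from edgeR), and by 0.84 (adjusted p = 0.0465 from edgeR) against siCtrl#2. Its call was lost without siCtrl#1 replicate 2 (0.85, adjusted p = 0.0896 from edgeR) or siCtrl#1 replicate 3 (0.97, adjusted p = 0.0638 from edgeR). ZFAND2A, also known as AIRAP, a proteasome partner induced by arsenite and heat, rose by 1.11 (adjusted p = 0.00435 from edgeR) and differed from siCtrl#2 by 0.65 (adjusted p = 0.083 from edgeR). DNAJB5 rose by 1.09 (adjusted p = 0.000543 from edgeR), but it also rose by 0.99 with siCtrl#2 (adjusted p = 0.0383 from edgeR), and the on-target siRNAs differed from siCtrl#2 by 0.099 (adjusted p = 0.773 from edgeR). The call with siCtrl#2, though not the size of the difference, was lost without siCtrl#1 replicate 1 or 3 or siCtrl#2 replicate 2 or 3, at 0.78, 0.91, 0.97 and 1.04.

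Between Tsg101 and Vps28 depletion, 2 of the 41 listed genes were called higher and 0 lower, a share of 4.88% beside 6.23% of all genes (4.16% called higher). Beside DNAJB2 this was STUB1, the ubiquitin ligase CHIP, which tags clients of HSP70 and HSP90 for degradation. STUB1 averaged 60.7 ± 2.17 and 64.8 ± 4.30 CPM with siTsg101#1 and siTsg101#2, 30.6 ± 6.21 and 29.7 ± 2.44 with siVps28#1 and siVps28#2, and 32.2 ± 1.25 and 34.7 ± 11.2 with siCtrl#1 and siCtrl#2. The difference was 1.05 (SE 0.13, adjusted p = 6.68e-06 from edgeR). JMJD8 lies antisense over 700 bases of the exons of STUB1. The strand setting of the counting was not stated, and the stretch that the panel reads was not known. Whether reads of the pair can be told apart is therefore not known.

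**Figure D4:**
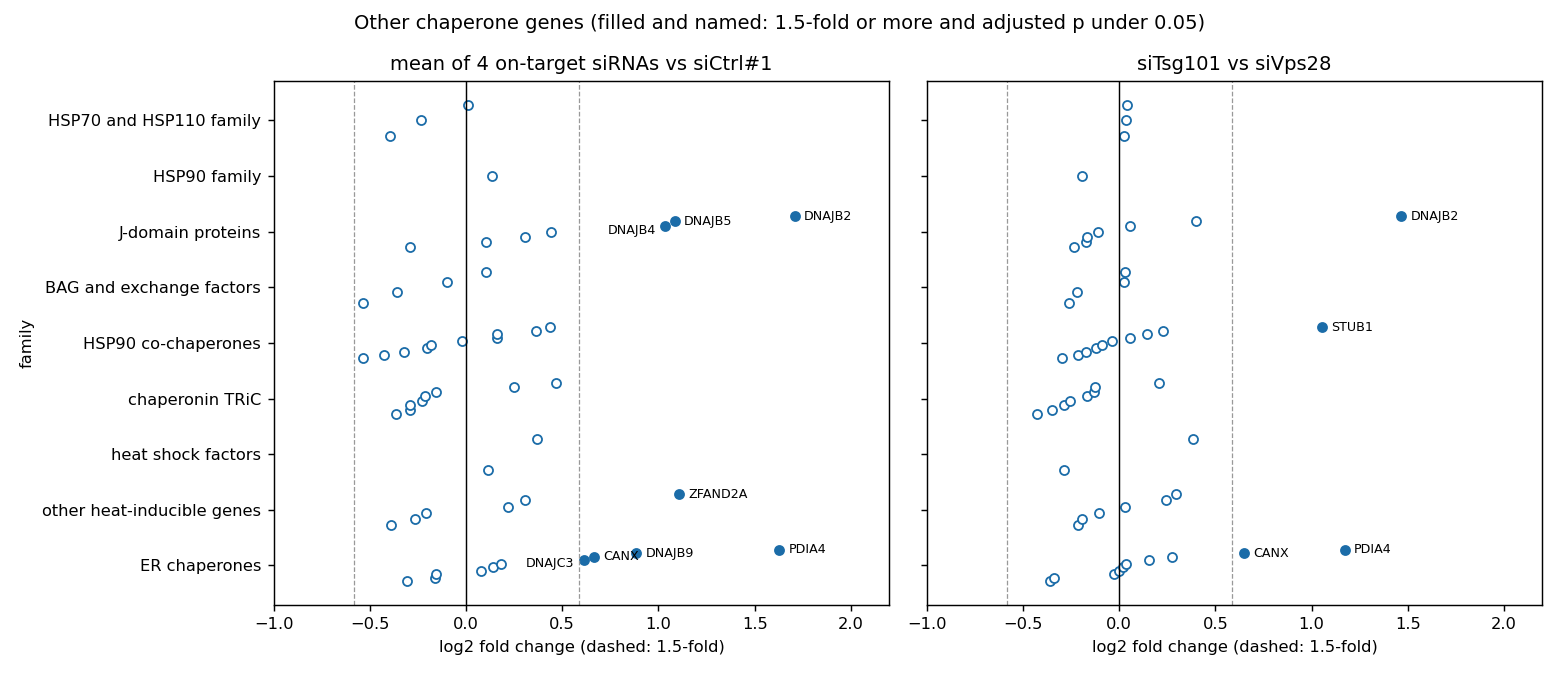
Log2 fold changes of the tested genes of the other cytosolic chaperone families and of the ER chaperones, 1 point per gene, for all 4 on-target siRNAs averaged, against siCtrl#1 (left) and for siTsg101 against siVps28 (right). Filled, named points passed both 1.5-fold and an adjusted p under 0.05, and dashed lines mark 1.5-fold. Among the cytosolic families the filled points are 3 J-domain genes and ZFAND2A on the left, and DNAJB2 and STUB1 on the right.

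For comparison with another folding compartment, 10 chaperone genes of the endoplasmic reticulum were read, and 4 (DNAJB9, PDIA4, DNAJC3 and CANX) were called higher and 0 lower against siCtrl#1, beside 15.1% of all genes called and 8.56% called higher, with a median of 0.16. Against siCtrl#2, DNAJB9 was the 1 of these 4 that was called. DNAJB9, a J-domain partner of the ER HSP70, rose by 0.89 (adjusted p = 0.00025 from edgeR), and by 1.10 against siCtrl#2 (adjusted p = 4.75e-05 from edgeR). PDIA4, a disulfide isomerase, rose by 1.63 (adjusted p = 3.53e-05 from edgeR) and DNAJC3, an inhibitor of the kinase PERK, by 0.61 (adjusted p = 0.00857 from edgeR). Both also rose with siCtrl#2 against siCtrl#1, by 1.22 (adjusted p = 0.0239 from edgeR) and 0.76 (adjusted p = 0.045 from edgeR). Relative to siCtrl#2 the on-target siRNAs differed by 0.41 for PDIA4 (adjusted p = 0.196 from edgeR) and by -0.15 for DNAJC3 (adjusted p = 0.57 from edgeR). CANX, calnexin, rose by 0.67 (adjusted p = 0.000837 from edgeR), and by 0.46 against siCtrl#2 (adjusted p = 0.0181 from edgeR), short of 1.5-fold. Of the single siRNAs against siCtrl#1, CANX was called only with siTsg101#2 (1.52), where 17% of all genes were called. It changed by 0.46 with siTsg101#1, 0.33 with siVps28#1 and 0.35 with siVps28#2. HSPA5, the ER HSP70 itself, changed by 0.076 against siCtrl#1 (adjusted p = 0.724 from edgeR). Against siCtrl#2 it was lower, by -0.41 (adjusted p = 0.0285 from edgeR), short of 1.5-fold. Whether the ER and cytosolic lists differ was not tested.

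The genes whose log2 CPM followed each member most closely over the 18 libraries were read among the other 10212 tested genes, as Pearson's r over libraries that share their depth, batch and siRNA. DNAJB1 was followed by JMJD6 (r = 0.899, Spearman's rho = 0.882, and r = 0.803 without the 2 most distant libraries). HSPH1 was followed by NABP1 (r = 0.913, rho = 0.86, 0.867 without 2 libraries), and HSF1 by ARHGAP22 (r = 0.949, rho = 0.938, 0.922). HSPB1 was followed by LIMS1 (r = 0.859, rho = 0.695, 0.698), HSP90AA1 by RSPRY1 (r = 0.867, rho = 0.82, 0.745), BAG3 by ENO1 (r = 0.853, rho = 0.849, 0.821) and HSPA8 by APEX1 (r = 0.804, rho = 0.771, 0.79). HSPA1B had no gene over GTF2H4 (r = 0.755, rho = 0.754, 0.731). In none of the 8 was the closest gene another member. As each was the highest of 10212 values, these are descriptions and carry no test.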

How the data were processed

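The authors read RKO libraries of the Ion AmpliSeq panel on an Ion Proton sequencer, mapped the reads to its hg19 transcripts and counted with HTSeq (0.6.0 in the submitters' processing notes, which also name DESeq2 1.18.1). The counts they deposited are whole reads per target, 1 list per library, neither normalized nor filtered. The strand setting was not given in the sources used here. Groups and batches were taken from the labels.

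As in the study, a gene was kept when its total over the 18 libraries exceeded 100 counts (10632 genes). The 419 of a noncoding type were left out, which left 10213 tested genes, 91 of them without a matched name. The deposited counts were scaled by TMM and tested with edgeR 4.0.16 in R 4.3.3, by its quasi-likelihood test with the 6 siRNA groups in one model. A call needed at least 1.5-fold and a Benjamini-Hochberg adjusted p under 0.05. Log2 CPM used a prior count of 2, and 95% intervals come from the same fit. The scripts were tested on simulated counts.

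Libraries ranged from 2561790 to 7466916 counts on genes (median 5022217), and the amplified reads carry no molecular identifiers. The main tests took the spread between replicates from all 6 groups in one model, with edgeR sharing information between genes. Batch as a block comes from the labels. Same-numbered libraries of different groups deviated together, their correlation over genes averaging 0.145 in 45 pairs (-0.148 to 0.389).

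The genes named are TSG101 and VPS28, the 8 heat shock genes, a list of other cytosolic chaperone genes and of ER chaperones written from general knowledge, and for each member the gene most like it. The members and lists were chosen with earlier results of these data known. The alternatives were DESeq2 1.42.0, RLE size factors, all gene types, no low-count filter, a minimum of 10 counts per library, siCtrl#2 or the mean of both controls as the reference, the block, the adjusted p alone, only the groups compared, and each library left out. Batch 2 left out and the test of batch were added after the values were seen. Coordinates of genes are from the GENCODE annotation on GRCh37, and promoter sequences from RefSeq on GRCh38.p14.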

Additional observations from a re-analysis of the deposited data

Results flagged for a closer look

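The changes differed between Tsg101 and Vps28 depletion for 4 listed chaperone genes, by a direct test of the difference, in a comparison where 6.23% of all genes were called and 4.16% called higher. They were 2 of the 41 other cytosolic chaperones and 2 of the 10 ER chaperones tested, and none is among the 8 heat shock genes. Tsg101 minus Vps28 depletion was 1.47 on the log2 scale for DNAJB2 (adjusted p = 1.84e-05 from edgeR) and 1.05 for STUB1 (adjusted p = 6.68e-06 from edgeR). It was 1.17 for PDIA4 (adjusted p = 6.84e-05 from edgeR) and 0.65 for CANX (adjusted p = 0.000363 from edgeR), both chaperones of the ER. For CANX the siRNAs against Tsg101 differed, with 475 ± 75.1 CPM for siTsg101#1 and 988 ± 132 for siTsg101#2 (1.06 on the log2 scale, adjusted p = 0.000212 from edgeR), beside 433 ± 47.4 and 439.5 ± 68.4 for siVps28#1 and siVps28#2. DNAJB2 had 5 to 133 counts per library, so that its values rest on few reads.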

How the results depend on the processing

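The number of the 8 heat shock genes called in the mean of the 4 on-target siRNAs was 1 and became 0 against the mean of both controls or without batch 2. With siCtrl#2 as the reference it was again 1, but HSPB1 in place of HSP90AA1. It was 0 to 1 with single libraries left out. For siTsg101#1 it fell from 1 to 0 without batch 2 (0 to 1 over single libraries, 0 without siCtrl#1 replicate 2), and against siCtrl#2 or both controls the 1 called was HSPB1 in place of HSP90AA1 (0.51 against both controls, beside 0.76 for HSPB1). For siTsg101#2 it fell from 1 to 0 against both controls, without batch 2, and without siCtrl#1 replicate 2 or 3 or any siTsg101#2 library (0 to 1), and against siCtrl#2 the 1 called was HSPB1. For siVps28#1 it rose from 0 to 1 with DESeq2, no low-count filter or the replicate block (HSP90AA1), with siCtrl#2 as the reference (HSPB1), and without siCtrl#1 replicate 1 or siVps28#1 replicate 2 (0 to 1). For siVps28#2 it rose from 0 to 1 with the replicate block (HSP90AA1), with siCtrl#2 as the reference (HSPB1, higher), and without siCtrl#1 replicate 1 (HSP90AA1, higher) or siVps28#2 replicate 1 (HSPB1, lower) (0 to 1). Between siTsg101#2 and siTsg101#1 it rose to 1, DNAJB1, with no low-count filter or the replicate block. Between the controls it rose from 1 to 2 with no low-count filter (HSPA1B, -0.71) and without siCtrl#1 replicate 1 (HSP90AA1, 0.90), and was 1 to 2 over single libraries. The number that differed between batches, 5, ran from 1 to 6, and was 1 without siTsg101#1 replicate 2 or siVps28#1 replicate 2.

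Of the other chaperones, 4 in the mean became 12 by the adjusted p alone (7 higher, 5 lower). Between Tsg101 and Vps28 depletion, 2 became 1 (STUB1) with at least 10 counts in every library, and 4 by the adjusted p alone. Dropping the 1.5-fold threshold also raised the number of all genes called in both comparisons, so that neither rise is particular to this list. Between the controls, 1 became 2 with no low-count filter, where 359 of all genes were called beside 213 before. It was 0 with only the groups compared (89 of all genes called) or without batch 2 (53), and 0 to 1 over single libraries.

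Signs changed for these values. In the mean of the 4 on-target siRNAs HSF1 was 0.054 without batch 2, and HSPA1B was -0.10 with the replicate block and -0.13 without batch 2. HSPA8 was 0.31 against siCtrl#2 and 0.069 against both controls, and HSPB1 was 1.23 and 0.44. Between the controls HSF1 was 0.13 without batch 2 and BAG3 was -0.0092 with the replicate block. HSP90AA1 with siVps28#2 was -0.022 against siCtrl#2. Over single libraries left out, the mean of the 4 on-target siRNAs ran from -0.26 to 0.61 for HSPA1B, -0.29 to 0.050 for HSPA8, -0.15 to 0.70 for HSPH1 and -0.035 to 0.44 for DNAJB1. Between the controls the range was -0.21 to 0.13 for HSF1, -0.60 to 0.38 for HSPH1, -0.040 to 0.43 for DNAJB1 and -0.21 to 0.23 for BAG3. Between Tsg101 and Vps28 depletion it was -0.13 to 0.41 for HSPA1B and -0.040 to 0.25 for HSPA8. The replicate block changed no other call given above for the 8 heat shock genes. What causes these shifts was not tested. With 3 libraries a group and no batch term, changes of the size of the intervals given for HSPA1B and HSPH1 could not be resolved. For the mean of the 4 on-target siRNAs, the replicate block narrowed the interval of HSPH1 to -0.11 to 0.59 (SE 0.17, beside 0.35 without it). That of HSPA1B became -0.65 to 0.44 (SE 0.26, beside 0.33 without it). Neither gene was called with the block.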
